A study of Oryza sativa Indica Group with 16 samples.

Results

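The glycoside hydrolase family 1 beta-glucosidase genes of rice, named BGLU (or OsBGLU) and a number, were followed in seedlings of 4 rice genotypes with and without salt. Genes were taken by symbol or synonym (BGLU followed by digits only), and a gene was kept where the platform annotation assigned at least 1 probe set to it alone. The gene table held 31 such genes, and 27 of them, among 17905 annotated genes, had a probe set of their own. These 27 genes had 39 probe sets: 18 genes had 1 probe set, 6 had 2 and 3 had 3. BGLU2, BGLU4, BGLU21 and BGLU24 had none, and the 7 numbers 11, 15, 17, 23, 29, 35 and 37 of the 38 in the family's list were not analysed here. The synonym BGLU1 belongs to 2 genes, and the entry on chromosome 1 was taken as BGLU1 and the entry on chromosome 3 as BGLU7. Of the 39 probe sets, 3 carry the suffix x_at and 3 the suffix s_at, which mark probes that can match closely related transcripts.

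Family 1 beta-glucosidases remove a terminal glucose from small molecules and short sugar chains. In plants their substrates include stored glucosides of hormones, phenolic acids, flavonoids and monolignols, the building blocks of lignin, as well as oligosaccharides released from the cell wall. Some members instead move the glucose to another acceptor, and SFR2, a divergent member, acts on chloroplast membrane lipids.

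The study measured transcripts on 16 Affymetrix rice arrays hybridised with RNA of Oryza sativa Indica Group seedlings 10 days after germination. Salt groups had received 150 mM NaCl for 24 h, and each group had 2 arrays. MI48 is the salt-sensitive parent and CSR27 the salt-tolerant parent. The other material came as pools of recombinant inbred lines, named the tolerant bulk and the sensitive bulk, so a bulk is an average over lines and not 1 genotype. Each of the 4 was sampled with salt and as a control, which gave 8 groups: MI48 salt and MI48 control, tolerant bulk salt and control, sensitive bulk salt and control, and CSR27 salt and control. The labels call the arrays biological replicates without saying how plants were divided among them, so a p-value here measures the spread between these arrays.

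The arrays differed in quality. For CSR27, control replicate 2 and salt replicate 1 did not carry rice transcripts, since neither correlated with any other array beyond a Spearman rho of 0.010 (the lowest was -0.0012, and 0.1 was required). That left CSR27 with 1 array per condition, given as values with no test. The 8 bulk arrays correlated at Spearman rho of 0.90 to 0.93 with each other and the 4 MI48 arrays at 0.66 to 0.77. Deposited medians were 14.8 to 26.1 on the bulk arrays, 86.3 and 4.6 on the MI48 salt arrays, and 1.9 and 1.5 on the MI48 control arrays. Signals were therefore scaled so that every array had a median of 18.4, and all values below are scaled signals unless said otherwise. Differences are salt minus control, or the first-named group minus the second, as log2(signal + 4.0) ± SE; dim probe sets have their folds understated by this scale. A call means a limma adjusted p (Benjamini-Hochberg, over all probe sets tested) under 0.05. In the bulks 35 member probe sets of 26 genes were bright enough to be tested, and in MI48 33 of 23 genes.

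Averaged over both bulks, 11 of the 26 tested BGLU genes changed with salt. BGLU16, BGLU25, BGLU26 and BGLU30 rose, and BGLU3, BGLU5, BGLU8, BGLU12, BGLU22, BGLU27 and BGLU31 fell. By probe set this was 14 of 35 called (limma, 4 salt and 4 control arrays), 6 higher and 8 lower; of all 32996 probe sets tested 14.9% were called, 2.63% higher and 12.2% lower, and of those assigned to 1 gene 20% were called (7.3% in the tolerant and 8.6% in the sensitive bulk alone). Quantile normalization in place of median scaling gave 14 calls too, split 9 higher and 5 lower, and 11 of the 14 probe sets were the same. Of all probe sets it called 12%, 1835 higher and 2118 lower, so the excess of lower calls over all probe sets was much smaller there. It turned the sign of 8 of 35 member differences in the tolerant bulk, 3 of 35 in the sensitive bulk and 8 of 35 in the average, none of them called under median scaling. The median difference was -0.07 over the member probe sets and -0.13 over all, and in bulk tissue fewer cells of a type and less RNA per cell cannot be told apart.

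In the tolerant bulk 6 member probe sets of 6 genes were called: BGLU26 and BGLU30 rose, and BGLU3, BGLU22, BGLU27 and BGLU31 fell. Over all probe sets 5.41% were called, 0.985% higher and 4.42% lower. The split was 4 higher and 2 lower after quantile normalization, which called 4.98% of all probe sets, 745 higher and 898 lower. In the sensitive bulk 8 member probe sets of 7 genes were called: BGLU16, BGLU30 and BGLU32 rose, and BGLU3, BGLU12, BGLU22 and BGLU27 fell. Here 6.51% of all probe sets were called, 1.74% higher and 4.77% lower. Quantile normalization gave 6 member calls higher and 2 lower, and called 6.48% of all probe sets, 1089 higher and 1046 lower.

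Salt and control arrays that do not overlap were common: 54.9% of all probe sets in the tolerant bulk, 48.6% in the sensitive bulk and 54.8% in MI48, so the order of arrays given below is a description. The counts of calls depended on single arrays. The share of all probe sets called without each array is not given here, so these counts are not a result about the members. Leaving out any of the 4 tolerant bulk arrays left 2 calls (without control replicate 1) or 1 (without control replicate 2, salt replicate 1 or salt replicate 2) in the tolerant bulk. In the sensitive bulk the count was 2 without salt replicate 1 and 0 without salt replicate 2, and 8 and 10 without control replicates 1 and 2. For the average of the bulks, leaving out sensitive bulk salt replicate 2 gave 6 calls and replicate 1 gave 8, and leaving out either tolerant bulk control array or tolerant bulk salt replicate 2 gave 7. BGLU22, BGLU27, BGLU26, BGLU3 probe set 3, BGLU30 probe set 2 and BGLU12 probe set 1 passed in the average of the bulks under every one of the 13 alternatives that kept the fit to bulk arrays. The other 8 called probe sets each missed the threshold under some of them.

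**Figure D1:**
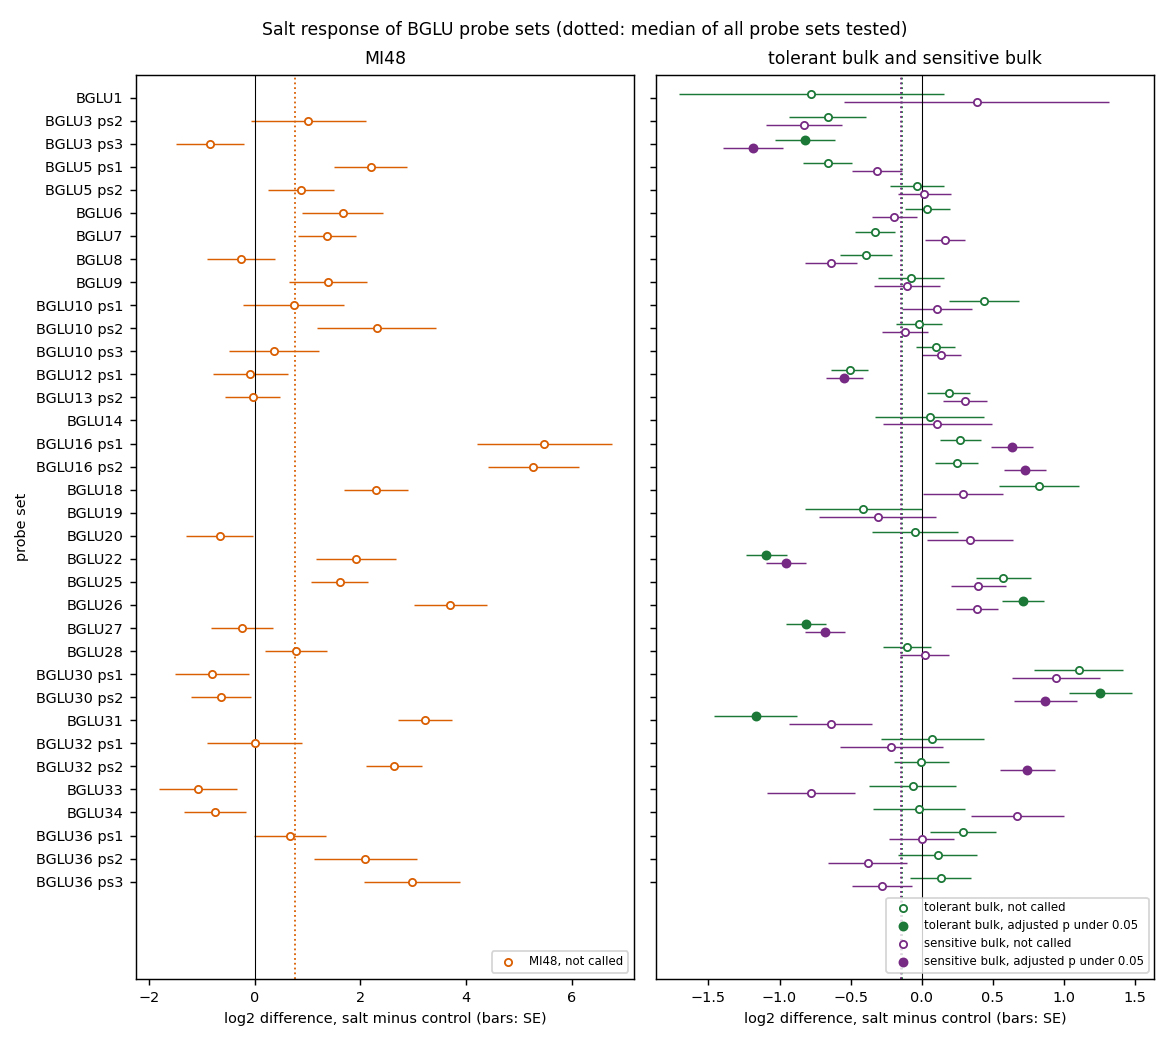
Salt response of the BGLU probe sets, as log2 difference salt minus control with its SE (horizontal axis) for each probe set tested in the bulks (rows, ps1 to ps3 for probe sets of 1 gene). The left panel shows MI48, where no point passed the test, and the right panel the tolerant and sensitive bulks, with filled points for adjusted p under 0.05; the panels have different axis ranges, and dotted lines mark the median of all probe sets tested (0.75 in MI48, -0.14 and -0.15 in the tolerant and sensitive bulks).

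BGLU16 and BGLU18, neighbours on chromosome 4 with no other coding gene between them, encode enzymes that release glucose from monolignol glucosides such as coniferin. BGLU16 probe set 2, an x_at set, had 1038 and 4715 in MI48 salt arrays, against 87.1 and 31.9 in MI48 controls. It had 254 and 254 in tolerant bulk salt arrays against 209 and 218 in controls, and 349 and 347 in sensitive bulk salt arrays against 194 and 224 in controls. Salt arrays lay above control arrays in all 3 genotypes, by far more in MI48 than in the bulks.

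The difference was 5.28 ± 0.86 in MI48 (adjusted p = 0.135, limma), 0.25 ± 0.15 in the tolerant bulk (adjusted p = 0.425) and 0.73 ± 0.15 in the sensitive bulk (adjusted p = 0.0185). BGLU16 probe set 1 gave 629 and 2461 in MI48 salt arrays, against 97.7 and 3.68 in MI48 controls, a difference of 5.48 ± 1.28. In deposited units those controls read 10.1 and 0.3, so the second lay near the bottom of that array's range. Probe set 1 had 240.2 and 238 with salt and 198 and 197 without in the tolerant bulk, and 330.0 and 313 and 208 and 203 in the sensitive bulk. In the bulks it differed by 0.27 ± 0.15 (tolerant) and 0.64 ± 0.15 (sensitive, adjusted p = 0.0283, limma). Of the 10 alternatives fitted on bulk arrays, 7 kept the sensitive bulk's call of each probe set. In the sensitive bulk probe sets 1 and 2 lost the call without salt replicate 1 (adjusted p = 0.176 and 0.126) and without salt replicate 2 (0.165 and 0.147). The average of the bulks was 0.45 ± 0.10 and 0.49 ± 0.11, and these calls were lost without any tolerant bulk array or sensitive bulk salt array for probe set 1 (0.0538 to 0.0741), and without a tolerant control or sensitive salt array for probe set 2 (0.0528 to 0.0702).

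BGLU18 had 190.4 and 436 in MI48 salt arrays and 51.3 and 60.1 in MI48 controls, with no overlap. In the tolerant bulk it had 106 and 82.7 with salt and 65.1 and 39.96 without, and in the sensitive bulk 104 and 73.8 with salt and 78.8 and 63.7 without. None of the 3 differences was called (2.30 ± 0.61, 0.82 ± 0.28 and 0.29 ± 0.28, adjusted p = 0.141, 0.133 and 0.593, limma); under quantile normalization the average of the bulks was, at 0.68 (adjusted p = 0.0337). BGLU14, the third monolignol glucosidase of this stretch, was dim, between 20.6 and 44.9 on the bulk arrays, and differed by 0.06 ± 0.38 and 0.11 ± 0.38 in the tolerant and sensitive bulks.

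BGLU12, an enzyme that acts on cell wall oligosaccharides and on the glucoside of tuberonic acid, a jasmonate derivative, fell. Its probe set 1 had 618 and 642 in tolerant bulk salt arrays against 914 and 878 in controls, and 511 and 477 in sensitive bulk salt arrays against 776 and 670.4 in controls. Every bulk salt array lay below every control array of its bulk. The differences were -0.51 ± 0.13 (adjusted p = 0.0516, limma) and -0.54 ± 0.13 (0.0353), and -0.52 ± 0.09 in the average (0.00404). The call in the sensitive bulk was lost under quantile normalization (adjusted p = 0.124) and without salt replicate 1 or 2 (0.146 and 0.252). Of the 10 alternatives fitted on bulk arrays, 4 kept that call. In MI48 salt and control arrays overlapped, with 268 and 625 and 713 and 264. BGLU12 probe set 2 was under the common median on every bulk array and was not tested.

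BGLU13, its neighbour, has been described as a glucosidase of hormone conjugates. Its probe set 2 had 316 and 296 with salt and 250.2 and 286 without in the tolerant bulk, and 295 and 271 and 218 and 238 in the sensitive bulk. It differed by 0.19 ± 0.15 and 0.31 ± 0.15, neither called. The average of the bulks, 0.25 ± 0.11 (adjusted p = 0.157, limma), was called after quantile normalization (0.46, adjusted p = 0.0249). BGLU9 and BGLU10, at the start of the same run of genes, were not called in any comparison: BGLU9 stayed between 49.1 and 65.1 on the bulk arrays, and the 3 probe sets of BGLU10 differed by -0.12 to 0.44 across both bulks.

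BGLU6, BGLU7 and BGLU8 lie on chromosome 3. BGLU7 and BGLU8, adjacent to each other, encode close relatives that hydrolyse oligosaccharides of the kind found in cell walls. BGLU7 was near the top of the signal range, at 1747 to 2943 on the bulk arrays and at a mean percentile of 98.9 among all rice probe sets there. It had 2916 and 1698 in MI48 salt arrays and 808 and 923 in MI48 controls. It differed by 1.36 ± 0.55 in MI48, -0.33 ± 0.14 in the tolerant bulk and 0.17 ± 0.14 in the sensitive bulk, and none was called.

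BGLU8 fell in the average of the bulks, by 0.51 on the log2 scale (SE 0.13, adjusted p = 0.0234, limma). It had 305 and 253 with salt and 371 and 359 without in the tolerant bulk, and 199.8 and 161 and 321 and 247 in the sensitive bulk. The salt arrays lay below the controls in each, but the call was lost under quantile normalization (0.0844) and without any of 4 single arrays, tolerant bulk control replicates 1 and 2 (0.101 and 0.0865), tolerant bulk salt replicate 2 (0.105) and sensitive bulk salt replicate 2 (0.114). MI48 had 227 and 85.1 with salt and 196 and 143 without, a difference of -0.26 ± 0.64. BGLU6 differed by 0.04 ± 0.16 and -0.19 ± 0.16 in the tolerant and sensitive bulks and by 1.66 ± 0.77 in MI48, with no call.

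BGLU31, on chromosome 9, encodes a transglucosidase, which passes glucose between phenolic acids, flavonoids and hormones rather than to water. It had 2029 and 2658 in MI48 salt arrays, against 291 and 206 in MI48 controls. In the tolerant bulk it had 185 and 174 with salt, against 405 and 412 in controls, and in the sensitive bulk 306 and 297 with salt, against 715 and 311. Salt arrays lay above controls in MI48 and below them in both bulks, although 1 sensitive bulk control was close to the salt arrays.

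BGLU31 fell in the tolerant bulk (-1.17 ± 0.29, adjusted p = 0.0429, limma) and in the average (-0.90 ± 0.21, 0.0145), and the sensitive bulk gave -0.64 ± 0.29 (0.224). Without each tolerant bulk array in turn the adjusted p in the tolerant bulk was 0.185 to 0.239, and in the average it was 0.0502 to 0.0644 without any 1 of the 6 arrays other than the sensitive bulk controls. Of the 9 alternatives fitted on bulk arrays, 4 kept the tolerant bulk's call. MI48 gave 3.22 ± 0.51 (0.135).

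BGLU32 and BGLU33 follow BGLU31 with no coding gene between. BGLU32 probe set 2, an s_at set, had 507 and 682 in MI48 salt arrays and 72.6 and 114 in MI48 controls. In the sensitive bulk it had 167 and 178 with salt and 92.3 and 111 without, and in the tolerant bulk 84.9 and 92.8 and 96.3 and 82.01. Salt arrays were the higher in MI48 and the sensitive bulk and overlapped with controls in the tolerant bulk. The rise in the sensitive bulk was 0.74 ± 0.19 (adjusted p = 0.0464, limma), the tolerant bulk gave -0.00 ± 0.19 and MI48 2.64 ± 0.53 (0.135). The sensitive bulk call was lost without control replicate 1 (0.0858) and without salt replicate 1 or 2 (0.168 and 0.256). Of the 10 alternatives fitted on bulk arrays, 5 kept that call. BGLU32 probe set 1, a dimmer set at 18.8 to 24.98 on the bulk arrays, did not show the difference: it gave -0.21 ± 0.36 in the sensitive bulk and -0.00 ± 0.90 in MI48. BGLU33 differed by -1.08 ± 0.74 in MI48, -0.06 ± 0.31 in the tolerant bulk and -0.78 ± 0.31 in the sensitive bulk, with no call. In MI48 it reached the common median on the control arrays only and entered the test through them.

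BGLU30, on the same chromosome but 126 coding genes from BGLU31, rose in both bulks. Probe set 2, an s_at set, had 408 and 404 in tolerant bulk salt arrays, against 160.2 and 175 in controls. It had 265 and 251 in sensitive bulk salt arrays, against 182 and 106 in controls. MI48 had 186 and 95.5 with salt, against 194 and 227 in controls. Salt arrays lay above controls in both bulks and below them in MI48.

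The differences of BGLU30 probe set 2 were 1.26 ± 0.22 in the tolerant bulk (adjusted p = 0.00842, limma), 0.87 ± 0.22 in the sensitive bulk (0.0426) and -0.63 ± 0.57 in MI48 (0.54). Without 1 tolerant array the tolerant bulk's adjusted p was 0.0762 to 0.0925, and without sensitive bulk salt replicate 1 or 2 the sensitive bulk's was 0.197 or 0.198. Of the 10 alternatives fitted on bulk arrays, 6 kept the call of probe set 2 in the sensitive bulk. Probe set 1 had 135 and 43.2 in MI48 salt arrays and 158 and 121 in MI48 controls. It had 384 and 434 with salt and 199 and 178 without in the tolerant bulk, and 204 and 215 and 166 and 68.2 in the sensitive bulk. Probe set 1 gave 1.10 ± 0.31 and 0.94 ± 0.31 in the bulks, and was called in the average (1.02 ± 0.22, adjusted p = 0.0108), though not without tolerant control replicate 2, tolerant salt replicate 2 or sensitive salt replicate 2 (0.0504, 0.057 and 0.0505). Quantile normalization called it in each bulk (0.0143 in the tolerant and 0.0195 in the sensitive bulk). Both probe sets of BGLU30 pointed the same way in every genotype tested.

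BGLU26, an enzyme that acts on mannosides as well as on cello-oligosaccharides, rose. It had 277 and 799 in MI48 salt arrays, against 40.6 and 25.7 in MI48 controls. It had 299 and 302 with salt and 185 and 178 without in the tolerant bulk, and 268 and 280.0 and 214 and 203 in the sensitive bulk. Salt arrays were above controls in all 3 genotypes. The differences were 3.70 ± 0.69 in MI48 (adjusted p = 0.135, limma), 0.71 ± 0.15 in the tolerant bulk (0.0177) and 0.39 ± 0.15 in the sensitive bulk (0.144). The tolerant bulk's call was lost without each of its arrays in turn (adjusted p 0.115 to 0.190), while the average of the bulks, 0.55 ± 0.10 (0.00548), kept its call. Quantile normalization called the sensitive bulk too (0.62, adjusted p = 0.0248, limma).

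**Figure D2:**
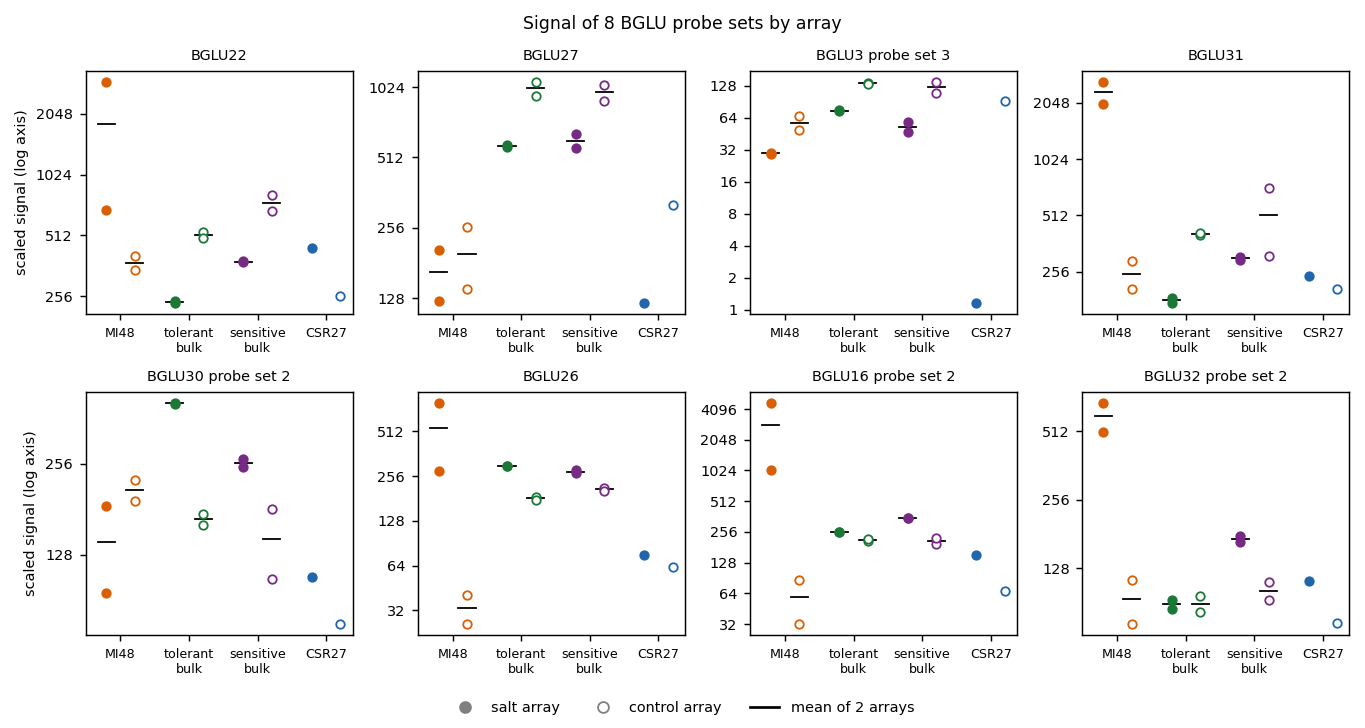
Scaled signal (log axis) of 8 BGLU probe sets on each array with rice signal: MI48, tolerant bulk, sensitive bulk and CSR27, with salt arrays filled and control arrays open, and a bar at the mean of 2 arrays. BGLU22 and BGLU31 sit higher with salt in MI48 and lower with salt in both bulks, BGLU30 probe set 2 the reverse, and BGLU26 and BGLU16 probe set 2 sit higher with salt in all 3.

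Among members whose substrates are less well known, BGLU22 on chromosome 5 fell in both bulks. It had 242 and 236 in tolerant bulk salt arrays, against 534 and 497 in controls. It had 383 and 376 in sensitive bulk salt arrays, against 811 and 672 in controls. The fall of -1.09 ± 0.14 in the tolerant bulk (adjusted p = 0.0016, limma) kept its call under all 9 alternatives fitted on bulk arrays, with adjusted p up to 0.0358. In the sensitive bulk the difference was -0.95 ± 0.14 (0.00392), and 8 of the 10 alternatives fitted on bulk arrays kept its call. Leaving out salt replicate 2 was among those that lost it. MI48 had 680.3 and 2954 with salt, against 403 and 344 in controls, a difference of 1.92 ± 0.76 in the other direction (adjusted p = 0.199).

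BGLU27, adjacent to BGLU28 on chromosome 8, also fell in both bulks. It had 578 and 565 with salt against 941 and 1079 in controls in the tolerant bulk, and 643 and 562 against 893 and 1048 in the sensitive bulk. The differences were -0.81 ± 0.14 (adjusted p = 0.00806, limma) and -0.68 ± 0.14 (0.019), and both calls were lost under quantile normalization (0.0565 and 0.135). They were also lost without tolerant bulk control replicate 2 or either tolerant salt array (0.0676 to 0.121) and without sensitive salt replicate 1 or 2 (0.0782 and 0.196). In the sensitive bulk 5 of the 10 alternatives fitted on bulk arrays kept the call. MI48 had 125 and 206 with salt and 257 and 139.8 without, which overlapped. BGLU28 differed by -0.10 ± 0.17 and 0.02 ± 0.17 in the tolerant and sensitive bulks and by 0.78 ± 0.58 in MI48, with no call.

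BGLU3 fell by both probe sets that could be tested. Probe set 3 had 75.9 and 73.5 with salt against 136 and 134 in controls in the tolerant bulk, and 58.01 and 46.6 against 139.6 and 109.5 in the sensitive bulk. MI48 had 29.4 and 29.98 with salt, against 65.8 and 49.04 in controls, so salt arrays of probe set 3 were the lower in all 3 genotypes. The differences were -0.85 ± 0.64 in MI48 (adjusted p = 0.458, limma), -0.82 ± 0.21 in the tolerant bulk (0.0483) and -1.19 ± 0.21 in the sensitive bulk (0.00923). The tolerant bulk's call was kept by 2 of the 9 alternatives fitted on bulk arrays. Quantile normalization (adjusted p = 0.0677, limma) and leaving out each of its arrays were among those that lost it. The sensitive bulk's call was kept by 8 of 10 alternatives, and leaving out salt replicate 2 was among those that lost it.

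Probe set 2 of BGLU3, an x_at set, fell in the average of the bulks (-0.74 ± 0.19, adjusted p = 0.0254, limma). It had 78.2 and 70.03 with salt and 162 and 87.5 without in the tolerant bulk, and 72.02 and 83.4 and 155 and 127 in the sensitive bulk. In MI48 it had 21.7 and 24.8 with salt and 30.97 and 1.23 without, which overlapped, and its difference of 1.01 ± 1.09 had the opposite sign to that of probe set 3. The call was lost under quantile normalization (0.059) and without tolerant control replicate 1, either tolerant salt array or either sensitive salt array (0.0652 to 0.108). Probe set 1 of BGLU3 reached the common median on 1 bulk array and was not tested.

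The 2 probe sets of BGLU5 differed. Probe set 1 had 226 and 186 with salt and 349 and 305 without in the tolerant bulk, and 301 and 279 and 405 and 322 in the sensitive bulk, a fall of -0.49 ± 0.12 in the average (adjusted p = 0.0228, limma). Probe set 2 gave -0.01 ± 0.13 in the average. The call of probe set 1 was lost under quantile normalization (0.112) and without tolerant control replicate 1 or 2, tolerant salt replicate 2 or either sensitive salt array (0.0619 to 0.118). In MI48 probe set 1 had 266 and 801 with salt, against 126 and 76.00 in controls (2.19 ± 0.69, adjusted p = 0.155), so its arrays there lay in the opposite order to the bulks.

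BGLU25, on chromosome 6, had 186 and 201 with salt against 145 and 115 in controls in the tolerant bulk, and 125 and 151 against 109 and 97.5 in the sensitive bulk. MI48 had 196 and 179 against 51.3 and 67.4, so salt arrays were above controls in all 3. Its rise in the average, 0.49 ± 0.14 (adjusted p = 0.0365, limma), was lost without any 1 of the 6 arrays other than the sensitive bulk controls (0.0593 to 0.166). MI48 gave 1.61 ± 0.54 (0.162).

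BGLU36 is the rice gene named SFR2, whose Arabidopsis counterpart remodels galactolipids of the chloroplast envelope and is needed for freezing tolerance. Its probe set 3 had 53.5 and 289 in MI48 salt arrays, against 11.6 and 13.5 in MI48 controls. In the tolerant bulk it had 102 and 93.8 with salt and 91.7 and 86.1 without, and in the sensitive bulk 86.03 and 97.8 and 133 and 94.6. Salt arrays lay above controls in MI48, and the bulk differences, not called, were 0.14 ± 0.21 and -0.28 ± 0.21. MI48 gave 2.97 ± 0.91 for probe set 3 (adjusted p = 0.152, limma), 2.09 ± 0.98 for probe set 2 and 0.67 ± 0.68 for probe set 1, so the 3 probe sets differed in size. Probe sets 2 and 3 reached the common median in MI48 on the salt arrays only and entered the test through them. Their controls read 0.9 to 1.2 in deposited units, under the array medians of 1.9 and 1.5, so the size of these differences rests on readings in the dim end of the control arrays.

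BGLU1, BGLU19, BGLU20, BGLU34 and BGLU38 had no call in any comparison. BGLU19, BGLU20 and BGLU34 were dim, with bulk arrays between 13.8 and 65.8, and differed by -0.41 to 0.67 in the bulks. BGLU20 and BGLU34 gave -0.67 ± 0.64 and -0.76 ± 0.58 in MI48. BGLU1 ran from 1.27 to 24.4 on the bulk arrays, and its difference had an SE of 0.93 in each bulk. BGLU38 stayed under the common median on every bulk array (0.47 to 10.3) and was not tested. BGLU13 probe set 1 reached it on 1 bulk array and was tested in MI48 alone, where it passed the filter through its salt arrays only (1.53 ± 0.94, not called). No detection calls came with the values, so a dim probe set cannot be called absent.

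**Figure D3:**
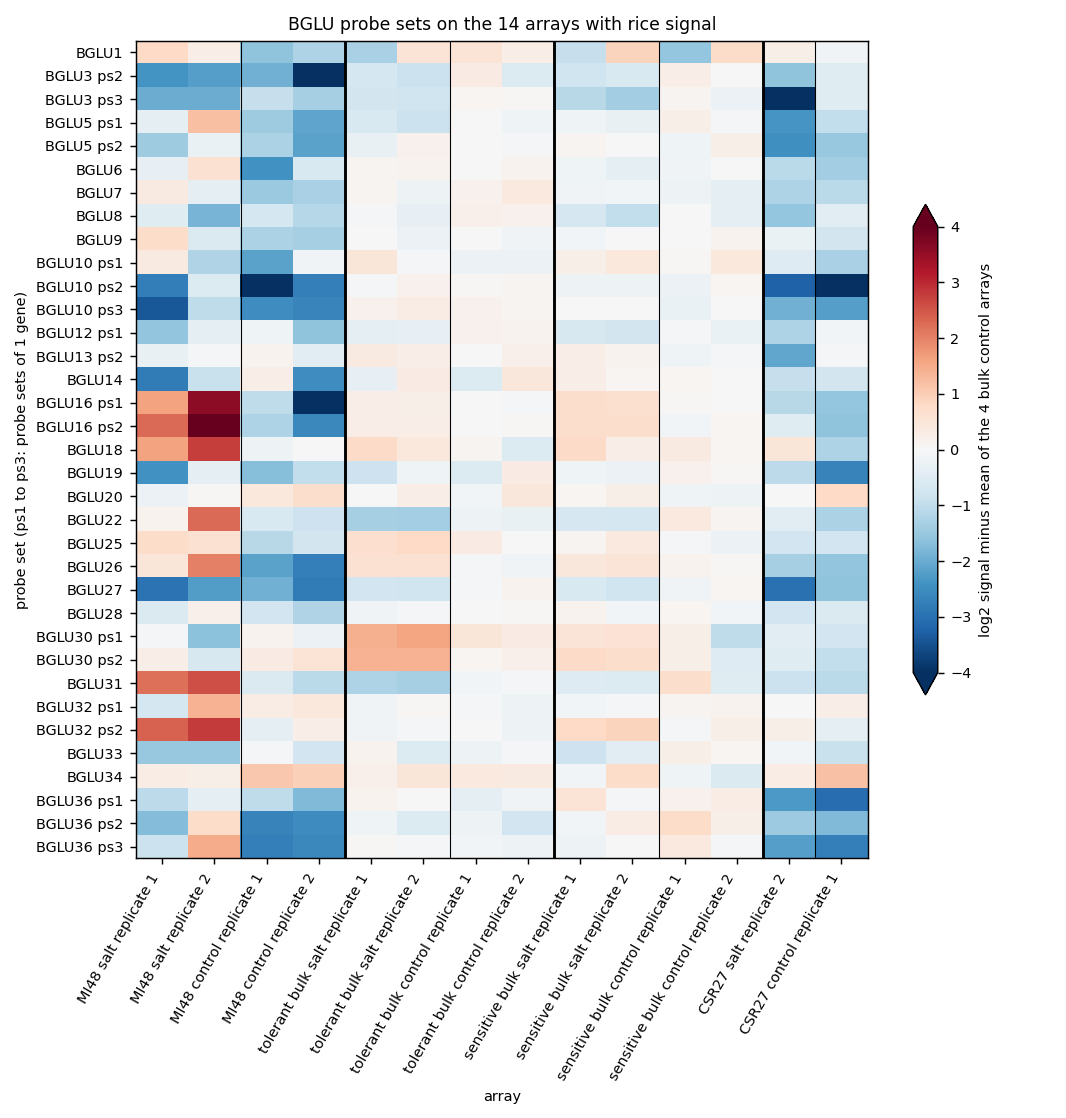
Log2 signal of the 35 BGLU probe sets tested in the bulks (rows) on the 14 arrays with rice signal (columns), as difference from the mean of the 4 bulk control arrays; the colour scale ends at -4 and 4. The bulk columns differ little from each other beside the MI48 and CSR27 columns. MI48 salt replicate 2 is darkest red at BGLU16 probe set 2 (4.45). MI48 salt replicate 1 is darkest red at BGLU32 probe set 2 (2.37), close to BGLU16 probe set 2 (2.28). Its blue at BGLU10 probe set 3 (-3.38) is darker.

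The tolerant bulk was then set against the sensitive bulk. Between the control groups no member probe set was called (limma), and 1.45% of all probe sets were; between the salt groups 1 was called, against 1.28% of all. At an unadjusted p under 0.05 there were 6 of 35 members (17.1%, against 14.1% of all) between the control groups and 13 of 35 (37.1%, against 15% of all) between the salt groups. That probe set, BGLU32 probe set 2, was lower in the tolerant bulk with salt (84.9 and 92.8) than in the sensitive bulk with salt (167 and 178), by -0.93 ± 0.19 (adjusted p = 0.0483). The call was lost without each of the 4 salt arrays in turn (0.230 to 0.319), with no filter, with a smaller pseudocount and with the replicate number as a block (0.052).

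BGLU22 was the other member close to the threshold between the bulks. It was lower in the tolerant bulk than in the sensitive bulk with salt (-0.66 ± 0.14, adjusted p = 0.0574, limma) and without it (-0.52 ± 0.14, 0.127). With the replicate number as a block its difference with salt was called (0.0499). After quantile normalization both differences were called (0.00518 with salt and 0.018 without). Quantile normalization also called BGLU5 probe set 1 lower in the tolerant bulk with salt (-0.63, adjusted p = 0.0398).

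The salt responses of the bulks did not differ by a called amount in any member (limma), and 0.173% of all probe sets were called. At an unadjusted p under 0.05 there were 3 of 35 members (8.57%, against 6.86% of all). Tolerant minus sensitive differences of the response ran from -1.17 to 0.71, with SEs of 0.19 to 1.32 and adjusted p of at least 0.630. BGLU32 probe set 2, called in the sensitive and not in the tolerant bulk, gave -0.75 ± 0.27. BGLU31 and BGLU26, called under median scaling in the tolerant bulk and not in the sensitive bulk, gave -0.53 ± 0.41 and 0.33 ± 0.21, and BGLU16 probe set 2, called in the sensitive and not in the tolerant bulk, gave -0.48 ± 0.21. A p that misses the threshold does not show that the responses were equal.

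In MI48 no member probe set was called (limma, 33 tested), and neither was any of the 31067 probe sets tested there (0%); 11 members and 7382 probe sets in all had an unadjusted p under 0.05. The absence of calls is no sign that nothing changed. On simulated data the same fit recovered 0 of 100 changes of 4 on the log2 scale. That simulation changed only 100 probe sets by 2 and 100 by 4 among 28962 tested, so its setting differs from these data. With the 14 arrays that hold rice signal in 1 fit, 15 members were called in MI48. That fit uses 1 spread for MI48 and bulk arrays, although the MI48 arrays varied more, as given below. The share of all probe sets called in it is not given here, so the 15 is not a result about the members. The median difference was 1.01 over members and 0.75 over all probe sets, so most MI48 differences were positive whatever the gene. The scaled 99th percentile was 2725 to 3308 on the MI48 salt arrays and 1001 to 1425 on the MI48 controls, against 2025 to 2760 on the bulk arrays. The spread between arrays of a group was 0.78 and 0.81 in the MI48 salt and control groups, and 0.26 to 0.40 in the bulks. In MI48 the arrays with the higher deposited medians are the salt arrays, so array brightness and salt cannot be told apart there.

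Set beside the bulks, MI48 showed positive differences for 12 members' probe sets that were negative in the average of the bulks, and negative ones for 5 that were positive there, of 32 tested in both. The medians over all probe sets had opposite signs too, 0.75 in MI48 and -0.13 in the average of the bulks. The share of all probe sets with opposite signs is not given here, so these counts are a description and not a result about the members. A comparison of the responses, MI48 minus the average of the bulks, was fitted on the 12 arrays of these genotypes with array weights; it was added after the values had been seen. It called 8 member probe sets of 7 genes, all higher in MI48, and 9.8% of all 38787 probe sets, 9.64% higher and 0.157% lower. The called genes were BGLU5, BGLU16, BGLU22, BGLU26, BGLU31, BGLU32 and BGLU36. After quantile normalization none of the 8 was called, and the only member call was BGLU30 probe set 2, lower in MI48 (-2.99, adjusted p = 0.0475, limma); then 0.174% of all probe sets were called. Leaving out single arrays moved the count of called members, most of all without MI48 salt replicate 1. The share of all probe sets called in those fits is not given here.

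BGLU31 had opposite signs in MI48 and the bulks, with an MI48 minus bulks difference of 4.13 ± 0.64 (adjusted p = 0.00632, limma), and BGLU22 gave 2.94 ± 0.57 (0.012). In both, every MI48 salt array lay above its controls and every bulk salt array below its own. BGLU5 probe set 1 did the same, with 2.68 ± 0.58 (0.0172). BGLU30 probe set 2 lay the other way round, below its controls in MI48 and above them in the bulks, with -1.70 ± 0.56 (0.0731). For BGLU16 the arrays were above controls in all 3, and the MI48 difference was larger (5.03 ± 0.95 and 4.79 ± 0.65 for probe sets 1 and 2). Under quantile normalization the values were smaller for BGLU31 (2.53) and BGLU22 (1.38), and larger in size for BGLU30 probe set 2 as given above.

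**Figure D4:**
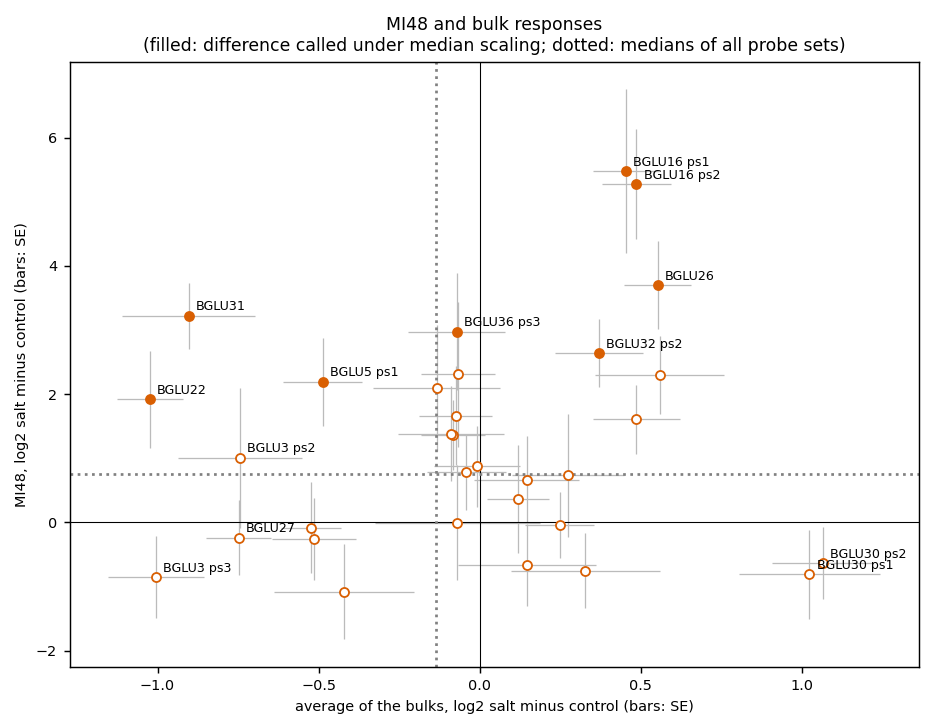
MI48 salt response (vertical axis) against the average response of the bulks (horizontal axis), log2 salt minus control with SEs, for the 32 BGLU probe sets tested in both; filled points were called in the MI48 minus bulks comparison under median scaling, and dotted lines mark the medians of all probe sets. BGLU31, BGLU22 and BGLU5 probe set 1 lie at the upper left, BGLU16 and BGLU26 at the upper right and BGLU30 at the lower right.

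CSR27 gave 1 salt and 1 control array, so its values have no replicate check. Of the 32 member probe sets at or above the common median on at least 1 of these arrays, 4 were past a fold of 2 upwards and 7 downwards (34.4%), against 46.4% of 36783 probe sets. BGLU12 probe set 1 had 341 with salt and 745 without, BGLU27 had 122 and 320.3, and BGLU3 probe set 3 had 1.15, the smallest step of that array, and 91.9. These 3 were lower with salt, as in both bulks. The same held for the falls past a fold of 2 in BGLU3 probe set 2, BGLU5 probe set 1 and BGLU8. BGLU13 probe set 2 fell too, with 55.2 with salt and 240 without, but its salt arrays lay above controls in both bulks. BGLU16 probe set 2 was higher, at 151 with salt against 66.8, while BGLU31 (242 against 208) and BGLU22 (445 against 255) were higher with salt and within a fold of 2.

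By place in the genome, 7 of the 31 genes lie on chromosome 4, 5 on chromosome 1 and 4 each on chromosomes 5 and 9, and 9 neighbouring pairs have no other coding gene between them. Neighbours did not show one common response. On chromosome 9 BGLU31 fell in the average of the bulks, while BGLU32 and BGLU33 had no call in the average. BGLU32 probe set 2 was called higher in the sensitive bulk, as given above, and in the average after quantile normalization (0.54, adjusted p = 0.0381, limma). BGLU27 fell in the average, and its neighbour BGLU28 had no call. BGLU12 and BGLU13 differed in sign in the average of the bulks (-0.52 ± 0.09 and 0.25 ± 0.11), as did BGLU7 and BGLU8 in the sensitive bulk. BGLU16 and BGLU18, both monolignol glucosidases, were positive in all 3 genotypes. Whether neighbours differ from each other was not tested.

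Genes of pathways that meet these enzymes were counted from lists taken by gene symbol. Of 4 probe sets of abscisic acid metabolism, 2 rose in each bulk: ABA8OX2, an enzyme that breaks the hormone down (average 1.68 ± 0.19, adjusted p = 0.000278, limma), and the gene with the synonym aba1 (0.86 ± 0.12, adjusted p = 0.00115), which is also named TRAB1, a transcription factor gene and not one of metabolism. Of 14 tested probe sets of jasmonate synthesis none rose and 2 fell in the average: JAR1, which conjugates jasmonate to isoleucine (-0.85 ± 0.12, 0.00108), and LOX8 (-1.78 ± 0.48, 0.0319). Of 18 for monolignol synthesis, 3 rose, all of them probe sets of 1 gene for PAL, the entry enzyme of the pathway (0.33 to 0.71). The other probe sets of that gene were not called (0.16 and 0.32). The 3 that fell were of 3 genes, 4CL (-0.76), CAD3 (-0.66) and 4CL4 (-0.66). Of 12 for glucan synthesis and hydrolysis none was called in the average; CSLF6, a mixed-linkage glucan synthase, was lower in the tolerant than in the sensitive bulk with salt (-0.66 ± 0.13, adjusted p = 0.0452). The share of all probe sets called in the average is the 14.9% given above.

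Marker levels of other tissues moved with the groups. The summed signal of 28 probe sets of seed storage and endosperm genes was 5136 to 5251 in the tolerant bulk with salt and 11445 to 13240 in its controls, and 5136 to 5281 in the sensitive bulk with salt and 1777 to 1837 in its controls. Of the 26 tested, 8 fell in the tolerant bulk, 7 rose in the sensitive bulk, and 10 were higher in the tolerant than in the sensitive bulk without salt. Green leaf genes summed to 43080 to 45808 in the tolerant bulk with salt and 48960 to 68494 in its controls, with 5 of 12 tested lower, and to 56770 to 60398 and 40850 to 53745 in the sensitive bulk with salt and its controls, with none called. In MI48 the seed storage sum was 450.1 to 4320 with salt and 386 to 401 in controls, and the green leaf sum 30877 to 123546 with salt and 22479 to 28635 in controls, both higher with salt as were most members there. The part of these tissue differences in the BGLU results was not tested.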

How the data were processed

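Each array gave 1 column of probe set signals, deposited as linear intensity. The submitters' processing notes name GCOS 1.2, while its scaling target and other settings are not stated there or in the labels. Of 57381 probe sets, 57258 were rice sequences and entered the analysis, and 123 were controls. Each array was scaled to a common median of 18.4, the geometric mean of the 8 bulk array medians, and values were taken as log2(signal + 4.0), the pseudocount being the 25th percentile of the scaled bulk values. A probe set was tested if it reached the common median on at least 2 arrays of the fit. Groups were compared with limma 3.58.1 in R 4.3.3 (group means, eBayes with trend, two-sided, Benjamini-Hochberg, threshold 0.05), in 1 fit of the 8 bulk arrays and 1 of the 4 MI48 arrays; CSR27 had too few usable arrays for a test. The comparison of MI48 with the bulks used 12 arrays with array weights.

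Members, lists and fits were chosen with earlier results of these data known. The comparison of MI48 with the bulks, the share called among probe sets with 1 gene and the quantile values per member were added after values had been seen. RCAR5, an abscisic acid receptor gene that a symbol search for RCA had taken in, was removed from the green leaf list after its values had been seen. The platform annotation gives 22436 rice probe sets 1 gene, 95 several and 34727 none, and all 17905 gene IDs matched the gene table, whose assembly ASM3414082v1 served for names, chromosomes and gene order only. Values on every MI48 and bulk array are given for member probe sets called in any comparison, members with several probe sets are described by all of them, and at most 4 called genes per other list are named.

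The processing was varied by quantile normalization, by testing every probe set, by 0.25 of the pseudocount, other sets of arrays in the fit, the replicate number as a block, and each array left out in turn. The fits were tested on simulated data: at a log2 change of 1 in the tolerant bulk 34 of 100 changed probe sets were recovered, and at 2, 83 of 100, while the MI48 fit recovered 0 of 100 at 2 and 0 of 100 at 4. The number of arrays limits the precision, and no detection calls, scan times or batches were used.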

Additional observations from a re-analysis of the deposited data

Results flagged for a closer look

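Of the values reported, 8 were marked because the salt response differed between MI48 and the bulks by a test of the difference itself (limma, 12 arrays with array weights, a comparison added after values had been seen). Groups of 2 arrays were too small for a search for outlying arrays within a group.

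The MI48 minus bulks difference of response was 5.03 for BGLU16 probe set 1, 4.79 for BGLU16 probe set 2 and 4.13 for BGLU31. It was 3.15 for BGLU26, 3.05 for BGLU36 probe set 3, 2.94 for BGLU22, 2.68 for BGLU5 probe set 1 and 2.27 for BGLU32 probe set 2. The adjusted p ran from 0.00427 to 0.0275. After quantile normalization the same differences were 4.01, 3.62 and 2.53 for the first 3 and 2.32, 2.74, 1.38, 1.25 and 0.86 for the other 5, with adjusted p from 0.0636 to 0.752. All 8 kept their sign and lost the call. Across all probe sets the median of this difference was 0.78 before and 0.07 after quantile normalization.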

How the results depend on the processing

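Median scaling, the fit and single arrays each moved the counts of called member probe sets. With all 16 arrays in 1 fit the count was 0 in the tolerant bulk, the sensitive bulk and the average and between the bulks with salt, and 1 in MI48. With the 14 arrays that hold rice signal it was 0 in those 4 comparisons and 15 in MI48, where the spread was shared with the less variable bulk arrays. With only the 4 arrays compared it was 10 in the tolerant bulk, 0 in the sensitive bulk and 5 between the bulks with salt. Without a filter it was 5 in the sensitive bulk and 0 between the bulks with salt, where 0.25 of the pseudocount also gave 0. Quantile normalization gave 1 between the bulks without salt, 3 with salt, and 1 for MI48 minus the bulks. Of all probe sets it called 2.18%, 2.79% and 0.174% in these comparisons. For the other settings of this paragraph, the 15 in MI48 included, the share of all probe sets called is not given here. Those counts are therefore not a result about the members. The cause was not tested.

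Leaving out 1 array gave 1 to 2 calls in the tolerant bulk, 0 to 10 in the sensitive bulk, 6 to 16 in the average, 0 to 4 between the bulks without salt, 0 to 0 with salt, 0 to 1 for the difference between the bulks, 0 to 0 in MI48 and 8 to 18 for MI48 minus the bulks. Quantile normalization without sensitive bulk control replicate 2, chosen after seeing the data, gave 11 calls in the sensitive bulk and 16 in the average. The share of all probe sets called is not given for these counts or for the replicate block below. They are therefore not a result about the members. No called difference changed sign under any alternative run. Quantile normalization turned the sign of member differences that were not called, 8 of 35 in the tolerant bulk, 3 in the sensitive bulk and 11 of 36 for MI48 minus the bulks among them. With the replicate number as a block the counts were 8 in the tolerant bulk, 9 in the sensitive bulk, 15 in the average, and 0, 1, 0, 0 and 8 in the others, and BGLU32 probe set 2 between the bulks with salt had an adjusted p of 0.052 and BGLU22, called in its place, 0.0499. The block was not taken as a pairing. Correlations of deviations ran from -0.52 to 0.14 over 28 pairs of groups, with 2 pairs over 0.1. The lowest was CSR27 control with CSR27 salt, and each of these groups holds an array without rice signal. Over the 6 pairs of bulk groups the correlations ran from -0.0005 to 0.027, and the correlation of MI48 salt with control was 0.113.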
